A study of Mus musculus with 8 samples.

Results

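The cartilage collagen genes Col2a1, Col9a1, Col9a2, Col9a3, Col11a1, Col11a2 and Col27a1 were followed in rib chondrocytes of FVB mouse embryos at E18.5, shortly before birth. They were taken by name, as all probe sets whose platform annotation holds exactly 1 of these 7 symbols. This gave 12 of the 45101 probe sets of the array, and each of the 12 passed the signal filter, a mean over the 8 arrays of 110 or more. The series holds 8 Affymetrix arrays, 4 from control embryos, labelled wild type, and 4 from embryos labelled Hoxc8 transgenic. Embryos of 1 genotype within a litter were put together, so that each of 4 litters gave 1 control and 1 transgenic sample, and litters are numbered here by the replicate number in the titles. The labels name neither the promoter that drives the transgene nor the number or sex of the embryos in a sample. Cells were freed from whole rib cages with collagenase and trypsin, strained and kept in Trizol, and no sort for chondrocytes is named.

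Cartilage draws its tensile strength from thin heterotypic fibrils. Type II collagen, a homotrimer of the Col2a1 product, forms the bulk of each fibril, and type XI collagen, built from the Col11a1 and Col11a2 chains and another chain that is also a Col2a1 product, lies in its core and limits its diameter. Type IX collagen, a heterotrimer of the Col9a1, Col9a2 and Col9a3 chains, belongs to the collagens with interrupted triple helices and decorates the fibril surface. Type XXVII collagen, a homotrimer of the Col27a1 product, is a separate fibrillar collagen of cartilage. Sox9, with Sox5 and Sox6, is the main activator of these genes in chondrocytes.

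Promoter windows from RefSeq (build GRCm38.p6, 250 bases before to 50 after a start site) were found for 5 of the 7 genes, and those that reach well upstream of the annotated gene are shown because the levels of these transcripts were correlated across the arrays, as described further on. Only bases before the annotated gene are printed, 5′ to 3′ on the plus strand, and capitals mark GGGCGG, the core of the GC box, on either strand. The windows are those of Col9a2 (chr4:121039316-121039565), Col11a1 (chr3:114030290-114030478) and the upstream start of Col9a1 (chr1:24177360-24177588).
Col9a2: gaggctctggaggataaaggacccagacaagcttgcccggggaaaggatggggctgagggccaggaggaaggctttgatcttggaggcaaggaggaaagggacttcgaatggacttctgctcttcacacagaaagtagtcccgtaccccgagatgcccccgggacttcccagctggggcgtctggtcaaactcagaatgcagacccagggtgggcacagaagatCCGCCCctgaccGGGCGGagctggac
Col11a1: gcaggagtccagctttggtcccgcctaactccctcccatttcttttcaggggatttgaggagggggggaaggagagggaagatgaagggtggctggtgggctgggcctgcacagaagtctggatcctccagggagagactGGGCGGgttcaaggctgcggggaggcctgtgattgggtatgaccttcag
Col9a1: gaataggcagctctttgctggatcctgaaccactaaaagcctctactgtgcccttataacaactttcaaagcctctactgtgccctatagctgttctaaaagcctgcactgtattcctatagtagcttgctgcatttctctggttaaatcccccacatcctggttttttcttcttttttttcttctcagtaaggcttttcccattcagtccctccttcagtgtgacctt

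Over the whole windows of 300 bases, GGGCGG had matches on either strand in Col9a2 (3 matches), Col11a1 (2), Col11a2 (2) and Col27a1 (2) and none in either window of Col9a1, where RefSeq lists 2 starts. Of all 32851 promoter windows of that length, 35.7% hold it. The letters TATAAA occurred once in Col11a2 and in none of the other windows, against 13.6% of all windows. The letters ACAAAG and ACAATG, forms of the core of Sox-type sites, occurred in none of the windows of the 5 genes, against 18.7% and 12.6% of all windows. Forms with T in place of the first A were not searched for. The printed sequences hold such letters, TCAAAG in Col9a1 and its reverse complement CTTTGA in Col9a2. The motifs do not overlap each other, and a match or its absence in these letters says nothing about binding. A link between these letters and the correlated levels was not tested.

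The arrays had median signals between 107 and 121, and their number limits the precision of each value. Hoxc8, the gene named for the transgene, gave signals of 4112, 3066, 3755 and 3143 in control and 4096, 3400, 3810 and 4235 in transgenic samples of litters 1 to 4. The groups overlapped, with a difference of 0.15 log2 (SE 0.08, limma with litter as a block, adjusted p = 0.9998) that was 0.05 without litter 4, so this probe set did not tell the genotypes apart. The sources used here do not say whether its probes lie in the sequence of the transgene. Chondrocyte markers other than the collagens were bright on every array. All 14 of those listed passed the filter, with Cnmd, a cartilage angiogenesis inhibitor, at a mean of 51328 ± 4523 (SD, n = 4) in control and 50112 ± 2652 (SD, n = 4) in transgenic samples. RNA of other cells was present too. Of 16 skeletal muscle markers 15 passed, led by Acta1 and Tnnt3, and of 14 markers of perichondrium and fibroblasts 13 passed, led by Col3a1 and Col1a2. In bulk samples fewer cells of a type and less RNA per cell cannot be told apart.

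The comparison of genotypes asks whether transcripts of the cartilage fibril differ between embryos with and without the Hoxc8 transgene. No cartilage collagen probe set was called between genotypes. By limma with litter as a block, 0 of the 12 passed an adjusted p of 0.05, where 0% of the 22495 probe sets tested did, and the adjusted p was 0.9998 for each of the 12. An unadjusted p under 0.05 was reached by 3 of the 12, Col2a1, Col9a2 and 1 probe set of Col9a3, against 3.33% of all probe sets tested, and by 0 of the 12 without the block, against 1.08%. With a spread that does not follow signal strength it was reached by 0 of the 12 too (limma, unadjusted p = 0.153, 0.0878 and 0.0823 for the 3), while 865 probe sets of the array reached it. The signals of the 2 genotypes overlapped for each of the 12 probe sets, where 1.02% of all probe sets tested did not overlap. Differences are given on the scale of log2(signal + 22.2), transgenic minus control.

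Col2a1 encodes the chain of type II collagen. Its signals in litters 1 to 4 were 45102, 63257, 40568 and 40147 in control and 39623, 45059, 39184 and 40101 in transgenic samples. The transgenic signal was the lower of the pair in each of the 4 litters, as for 5.41% of all probe sets tested, but the gap was wide only in litter 2, whose control sample stood far above the rest. Set against its control, the transgenic sample reached 0.879, 0.712, 0.966 and 0.999 of the signal in litters 1 to 4. The fit gave -0.18 log2 (SE 0.08) with 95% bounds of -0.35 and -0.01, or 0.784-fold and 0.992-fold (limma, unadjusted p = 0.0377, adjusted p = 0.9998). Without litter 2 it was -0.08 log2 (SE 0.06, limma, unadjusted p = 0.2).

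The control sample of litter 2 was also high for other bright probe sets. For 176 probe sets of other genes, each averaging 30000 or more, the median deviation from the mean of the 8 arrays was 0.22 log2 in that sample and 0.06 in the transgenic sample of litter 2, and between -0.14 and 0.02 in the other 6 samples. Col2a1, Col9a1, Col9a3 and Col11a1 are of this brightness. After quantile normalization, which gives all arrays the same distribution of signals, the difference of Col2a1 was -0.15 log2 (SE 0.05, limma, unadjusted p = 0.00742, adjusted p = 0.9992). The highest signal of any probe set on an array lay between 51568 and 65244, and whether signals near it were compressed was not tested.

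**Figure D1:**
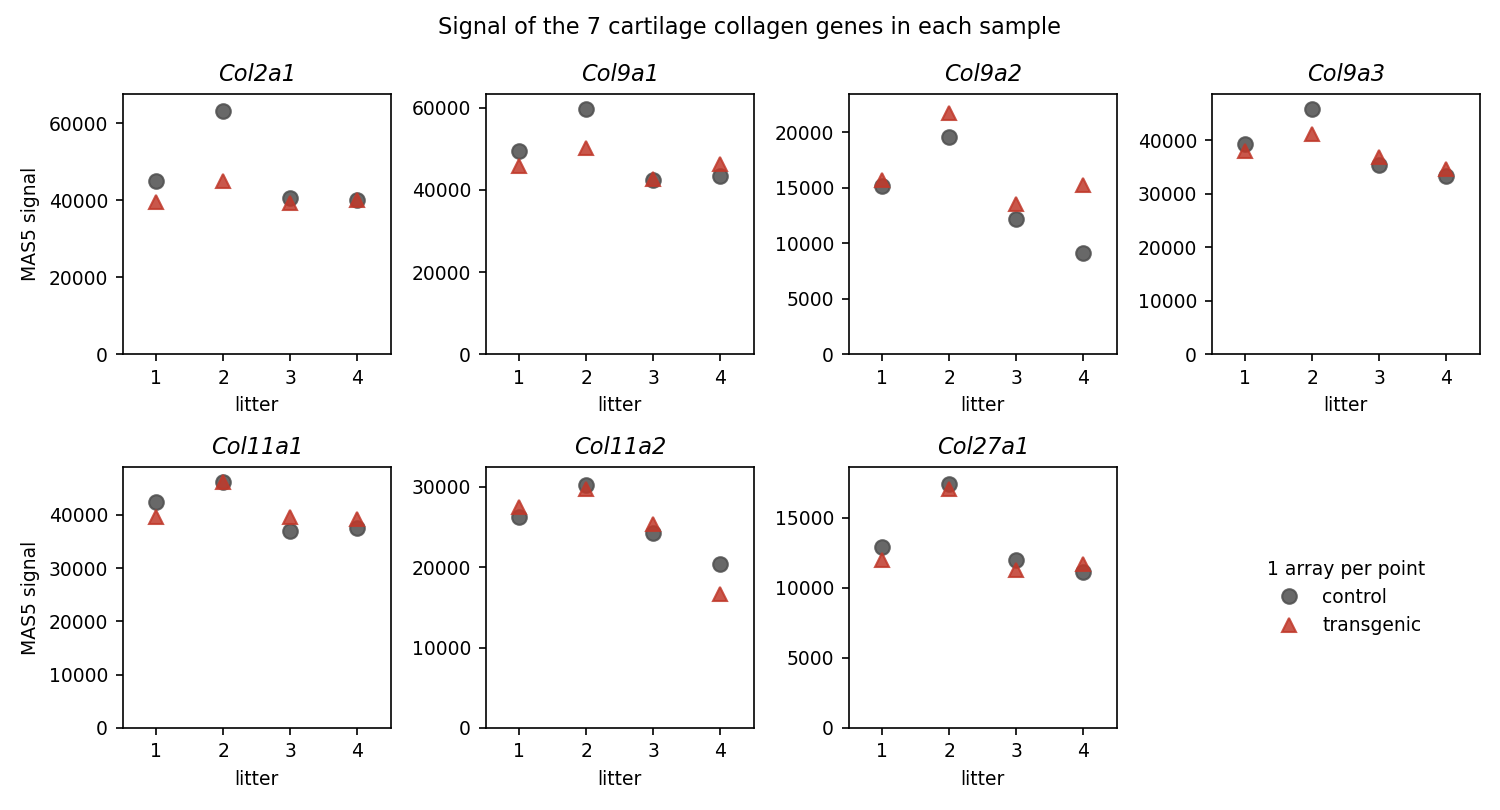
Deposited MAS5 signal (linear axis from 0) of the brightest probe set of each gene by litter, with a grey circle for the control and a red triangle for the transgenic sample, 1 array per point. Control signals of Col2a1 reached 63257 in litter 2, and the highest litter mean is that of litter 2 in all 7 panels.

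Among the chains of type IX collagen, only Col9a2 had the transgenic sample above its control in all 4 litters at its brightest probe set. Of all probe sets tested, 5.20% were higher in the transgenic sample of all 4 litters. The signals of Col9a2 were 15194, 19566, 12188 and 9164 in control and 15732, 21757, 13553 and 15221 in transgenic samples. The groups overlapped across litters, and the ratios within litters were 1.04, 1.11, 1.11 and 1.66. The fit gave 0.27 log2 (SE 0.10) with 95% bounds of 0.06 and 0.48, or 1.04-fold to 1.40-fold (limma, unadjusted p = 0.0158, adjusted p = 0.9998). Litter 4 held most of it, and without that litter the difference was 0.12 log2 (SE 0.07, limma, unadjusted p = 0.106).

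Col9a1, whose chain in cartilage carries a globular amino-terminal domain, was measured by 2 probe sets whose mean differences between genotypes stood close to each other. At the brighter one the signals were 49537, 59594, 42499 and 43279 in control and 45821, 50150, 42783 and 46249 in transgenic samples, and 2 of the 4 litters had the higher signal in either genotype. Its difference was -0.06 log2 with an interval from -0.21 to 0.08, and that of the other probe set -0.03 with an interval from -0.16 to 0.10. Together the 2 intervals reach from 0.865-fold to 1.07-fold. The brighter probe set stood at 0.00 log2 without litter 2 and at -0.12 without litter 4.

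Col9a3 was measured by 3 probe sets that did not behave alike. The brightest gave 39337, 45828, 35310 and 33390 in control and 37998, 41156, 36984 and 34644 in transgenic samples, and the genotypes were -0.02 log2 apart (interval -0.15 to 0.11). At the next brightest the signals were 19935, 22943, 21599 and 19511 in control and 22132, 25429, 23989 and 23224 in transgenic samples. Here the transgenic sample was the higher in each of the 4 litters, as for 5.20% of all probe sets tested. The difference was 0.18 log2 (SE 0.06, interval 0.05 to 0.30, limma, unadjusted p = 0.0107, adjusted p = 0.9998). The sources used here do not say which transcripts of the gene each probe set reads. The dimmest probe set had signals between 59.5 and 317, close to the filter, and an interval from -0.49 to 1.17.

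For type XI collagen the differences were small. Col11a1 gave 42457, 46182, 37010 and 37529 in control and 39596, 46082, 39631 and 39154 in transgenic samples, with 2 litters higher and 2 lower. Its difference was 0.01 log2 (interval -0.12 to 0.14), or 0.923-fold to 1.10-fold, and its other probe set stood at 0.05 log2 (interval -0.11 to 0.21). Col11a2 gave 26210, 30256, 24239 and 20401 in control and 27461, 29729, 25411 and 16677 in transgenic samples. The genotypes lay close together in litters 1 to 3, and the transgenic sample of litter 4 was the lowest of the 8. The difference was -0.05 log2 (interval -0.20 to 0.11), or 0.871-fold to 1.08-fold.

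Col27a1 had control signals of 12931, 17402, 11990 and 11134 and transgenic signals of 11980, 17019, 11261 and 11676. Within each litter the 2 samples were close, and the difference was -0.04 log2 with an interval from -0.18 to 0.09, or 0.886-fold to 1.07-fold. It was -0.02 without litter 1 and -0.08 without litter 4. The other probe set of the gene stood at 0.00 log2, with an interval from -0.14 to 0.14.

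**Figure D2:**
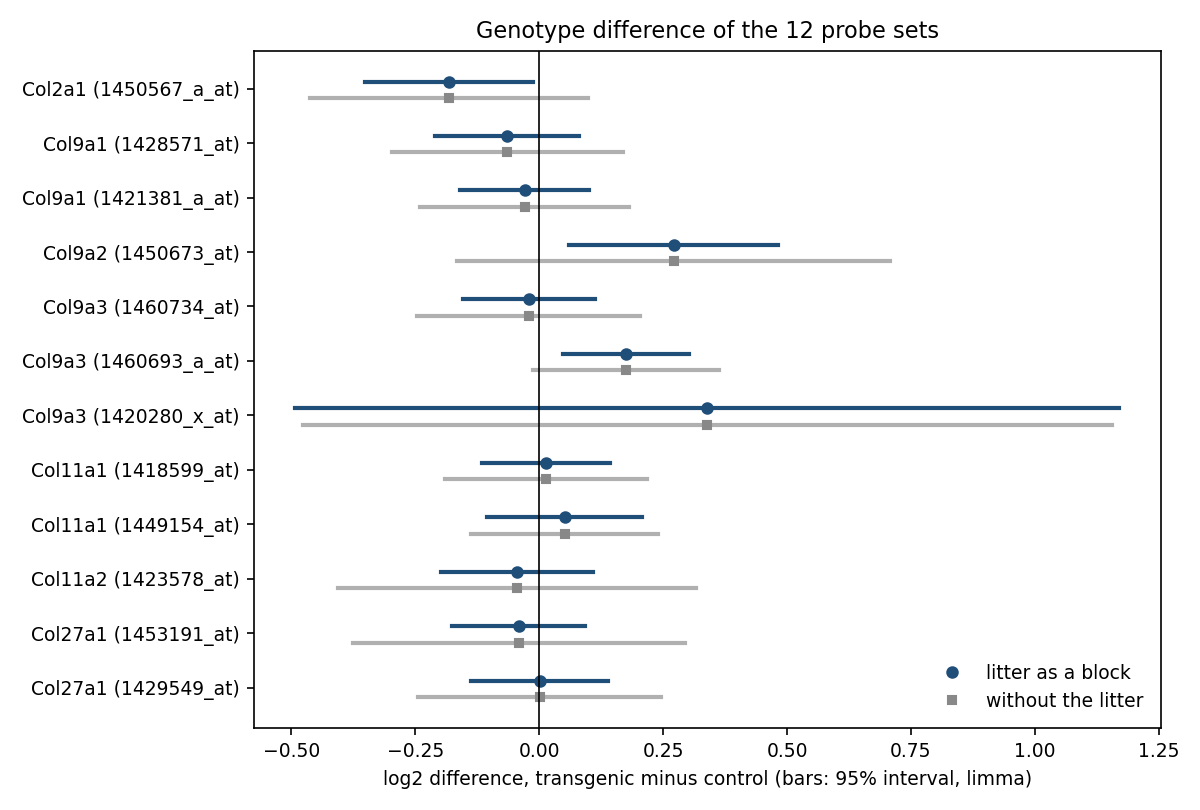
Difference between genotypes (log2, transgenic minus control) for each of the 12 probe sets, with 95% intervals from limma, in blue with litter as a block and in grey without it. With the block the intervals of Col2a1, Col9a2 and 1 of the 3 Col9a3 probe sets leave out 0, and without it all 12 cover 0; none was called after adjustment.

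Over the 12 probe sets, 6 differences were positive and 6 negative, with a median of -0.01 log2, against a median of 0.00 over all probe sets tested. The median half-width of the 95% interval was 0.14 log2 for the 12 probe sets and 0.28 over all those tested.

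Since the chains of type IX and of type XI collagen join in fixed proportions, ratios of chains were taken within each sample. That reason does not cover ratios that set one collagen type against another, and all are ratios of RNA signals, not of protein. A ratio of 2 probe sets has no absolute meaning, so only its change between the samples of a litter was read. Over 10 ratios, the exact two-sided permutation test that flips the sign of the 4 litter differences cannot go below p = 0.125, and no ratio can pass a threshold of 0.05 by it. The widest shift was that of Col9a2 to Col2a1, a surface chain against the main fibril chain. The log2 ratio was higher in the transgenic sample by 0.24, 0.64, 0.20 and 0.73 in litters 1 to 4, a mean of 0.45 ± 0.27 (SD, n = 4), or 1.37-fold (exact permutation p = 0.125, adjusted over the 10 ratios 0.208). Relative to the mean of the 8 arrays, the ratio lay between -0.58 and -0.02 in control and between 0.02 and 0.50 in transgenic samples, so that the groups did not overlap.

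Col2a1 enters 6 of the 10 ratios as the denominator, and its own signal was the lower in all 4 transgenic samples. Of the 6, 4 were higher in the transgenic sample of all 4 litters, Col9a1, Col9a2, Col9a3 and Col11a1 to Col2a1. The ratio of any tested gene to Col2a1 was higher in all 4 litters for 22.0% of genes, and its groups did not overlap, with transgenic samples higher, for 1.81% (lower for 0.0182%). A lower ratio in all 4 litters was found for 0.282% of genes. The ratio of Col11a1 to Col2a1, 2 components of the same fibril, shifted by 0.20 ± 0.20 log2 (SD, n = 4), with 0.49 in litter 2 and between 0.06 and 0.15 in the others (exact permutation p = 0.125, adjusted 0.208), and its groups did not overlap either. Without pairing by litter, both these ratios gave an exact permutation p of 0.0286 over the 70 assignments of 4 and 4 arrays, the smallest it can give, and 0.143 after adjustment over the 10 ratios. No ratio was thus called with or without the pairing.

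Within type IX collagen the ratio of Col9a1 to Col9a2 was lower in the transgenic sample of each litter, by 0.16, 0.40, 0.14 and 0.64 log2 (mean -0.34 ± 0.23, SD, n = 4, exact permutation p = 0.125, adjusted 0.208). The ratio of any tested gene to Col9a2 was lower in all 4 litters for 31.8% of genes and higher for 0.0820%. The groups overlapped for Col9a1 to Col9a2, where 0.893% of genes had a ratio to Col9a2 that was lower in transgenic samples with no overlap. Col9a1 to Col9a3 moved by -0.04 ± 0.06 log2 (SD, n = 4), with litter 4 opposite to the other 3. The ratio of Col9a2 to Col9a3 was higher in the transgenic sample of each litter, by 0.10, 0.31, 0.09 and 0.68 log2 (mean 0.29 ± 0.28, SD, n = 4, exact permutation p = 0.125, adjusted 0.208). Both ratios to Col9a3 depend on its probe set. With the mean of all probe sets of a gene, the dim one included, Col9a1 to Col9a3 stood at -0.21 and Col9a2 to Col9a3 at 0.11 (exact permutation p = 0.375 and 0.875). Within type XI collagen, Col11a1 to Col11a2 shifted by -0.17, 0.02, 0.03 and 0.35 in litters 1 to 4, a mean of 0.06 ± 0.22 log2 (SD, n = 4, exact permutation p = 0.625), and the litters did not share a direction.

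**Figure D3:**
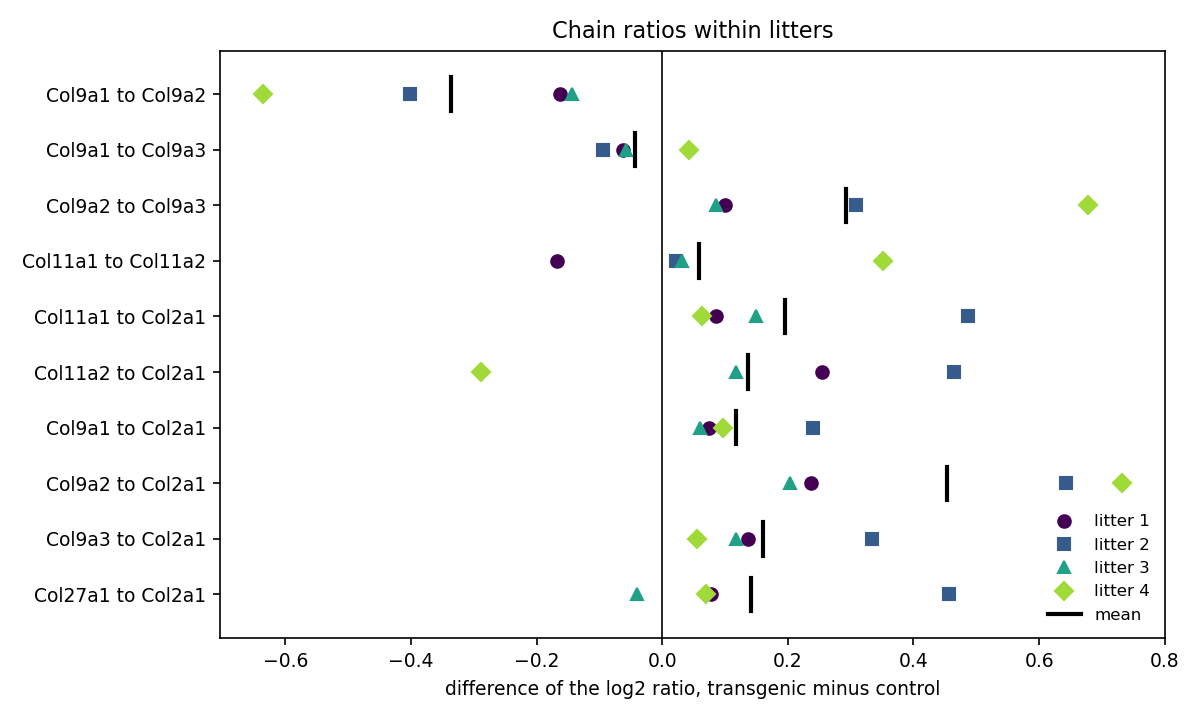
Difference of the log2 ratio between the transgenic and the control sample of each litter (1 symbol per litter) for 10 pairs of chains, with the mean as a black bar. Col9a2 to Col2a1 lies between 0.20 and 0.73 in the 4 litters, while Col11a1 to Col11a2 spans 0, from -0.17 to 0.35.

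Differences between litters, each with a control and a transgenic sample, were called for 3 of the 7 genes. In the F-test of limma on the litter terms of the same model, Col9a2 (adjusted p = 0.0129), Col11a2 (adjusted p = 0.00617) and Col27a1 (adjusted p = 0.00464) were called between litters. These are 3 of the 12 probe sets, against 9.07% of all probe sets tested. Among bright probe sets the share called was larger, 16.1% of the 491 at least as bright as the brightest of Col27a1 and 17.5% of 658 other probe sets of 10000 or more. Of the members, 9 of the 12 had an unadjusted p under 0.05, against 27.8%. The calls rest on an estimate of the spread that follows signal strength. With a spread estimated without this trend, no probe set of the array was called (4914 had an unadjusted p under 0.05, 3 of them of these collagens), and the adjusted p were 0.174, 0.156 and 0.147 for the 3 genes. With no filter on signal, Col9a2 was not called (limma, litter adjusted p = 0.0511) and the other 2 were.

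Col27a1 was the most uneven by its p. Both samples of litter 2 stood apart from the other 6, with a mean of 17211 against 12455, 11626 and 11405 in litters 1, 3 and 4, and the geometric litter means spanned 1.51-fold. Without litter 2 it was not called (limma, litter adjusted p = 0.553). Its second probe set also had its highest mean in litter 2 but close to that of litter 1, 8630 against 8372 (litter adjusted p = 0.0646), and it was called after quantile normalization (limma, litter adjusted p = 0.041).

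For Col9a2 the litter means were 15463, 20661, 12870 and 12193, and their geometric means spanned 1.75-fold, again with litter 2 the highest. Without litter 2 the adjusted p was 0.258 by limma. Col11a2 had means of 26835, 29993, 24825 and 18539, with a span of 1.63-fold between geometric means, and here the low litter 4 carried the call, since without it the adjusted p was 0.147 and without litter 2 it was 0.0446 (limma). The uneven litters were thus not the same for the 3 genes.

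The mean was highest in litter 2 for 11 of the 12 probe sets, an order noticed in these data, where 29.5% of all probe sets tested had their highest mean there. The 3 called probe sets were all among the 11, and 3.79% of those tested were both called and highest in litter 2. The lowest mean lay in litter 4 for 6 of the 12, against 29.2%. Brightness moved with this order. Of the 176 other probe sets of at least 30000, 91.5% had their highest mean in litter 2, and of the 491 probe sets at least as bright as Col27a1, these collagens included, 58.2% did. The mean deviation of litter 2 was 0.29 log2 for Col2a1, 0.21 for Col9a1, 0.20 for Col9a3 and 0.18 for Col11a1, beside 0.14 for those 176 probe sets. It was 0.47 for Col9a2, 0.41 for Col27a1 and 0.28 for Col11a2, beside 0.06 for 658 other probe sets of at least 10000.

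After quantile normalization the pattern parted. The brightest probe sets of Col9a2, Col11a2 and Col27a1 were still called between litters (limma, adjusted p = 0.0176, 0.00702 and 0.00534), with deviations of 0.41, 0.18 and 0.35 log2 in litter 2 and -0.33, -0.42 and -0.20 in litter 4. For Col2a1, Col9a1 and Col11a1 the span of the litter means shrank from 0.42, 0.36 and 0.27 log2 to 0.21, 0.08 and 0.13, and for Col9a3 from 0.35 to 0.21. In this setting the highest mean of Col9a1 and Col9a3 lay in litter 1 and that of Col11a1 in litter 3. Which litter was highest for these 3 genes thus depends on the scaling. The lowest mean after normalization was shared, since litter 4 was also the lowest for Col2a1, Col9a1, Col9a3 and Col11a1. Their deviations there were -0.10, -0.05, -0.15 and -0.09 log2.

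**Figure D4:**
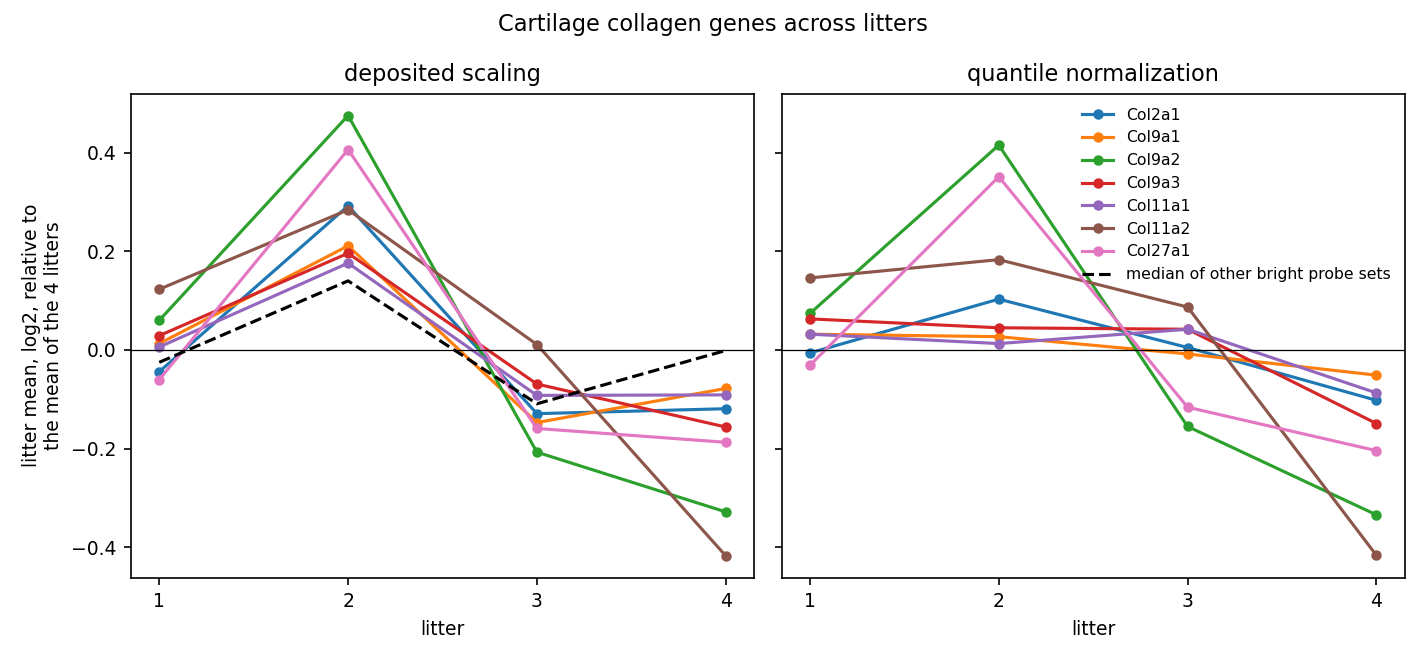
Litter means of the brightest probe set of each gene (log2, relative to the mean of the 4 litters), with deposited scaling on the left and after quantile normalization on the right. Coloured lines join the points of a gene and the dashed line on the left is the median of 176 other bright probe sets; Col9a2 and Col27a1 stand at 0.41 and 0.35 in litter 2 after normalization, while Col9a1 is at 0.03.

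Over the 8 arrays, which share litters, the 7 genes at their brightest probe sets had Pearson correlations between 0.52 and 0.94 in 21 pairs, with a median of 0.83. Col2a1 and Col9a1 gave 0.94 (Spearman rho = 0.67), Col11a1 and Col27a1 0.93 (0.69), and the 2 chains of type XI collagen 0.66 (0.83). By rank the pairs lay between 0.33, for Col2a1 and Col9a2, and 0.95, for Col9a3 and Col11a2. Correlations among other probe sets of like brightness were not taken. Without litter 2 the range was 0.06 to 0.85 with a median of 0.65, so that part of the likeness rests on that litter. This is a likeness of levels, and the differences between genotypes did not all run the same way within a litter. In litter 4 the transgenic sample had 0.818 times the control signal for Col11a2 and 1.66 times for Col9a2. Among 10972 other genes, those most like Col2a1 over the 8 arrays were Troap (Pearson r = 0.968, Spearman rho = 0.786), Actb (0.968 and 0.857), Igf2 (0.955 and 0.619), Rpl41 (0.952 and 0.667) and Ganc (0.949 and 0.929). Actb, Igf2 and Rpl41 are bright probe sets too, with signals between 27096 and 56966. Those most like the mean of the 7 genes were Ifrd1 (r = 0.979, rho = 0.976), Gclc (0.977 and 0.952), Hsd17b7 (0.976 and 0.929), Avpr1a (0.976 and 0.976) and Fmod, a fibril-binding proteoglycan (0.974 and 0.976). Without litter 2 Troap stood at r = 0.65 with Col2a1, and Ifrd1 at 0.98 with the mean of the 7.

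Other cells of the rib cage also varied by litter. The summed signal of the 15 skeletal muscle markers was lowest in litter 2, 41676 in control and 38978 in transgenic, and highest in litter 4, 68203 and 63306. Over all litters it ranged from 41676 to 68203 in control and from 38978 to 63306 in transgenic samples. For 4 of the 8 neutrophil markers the sum was also lowest in litter 2, 1753 and 1621, with a range of 1753 to 5403 in control and 1621 to 3523 in transgenic samples, led by S100a9 and S100a8, while Camp, Ltf, Elane and Mpo were under the filter. The 13 markers of perichondrium and fibroblasts were highest in litter 3 and lowest in litter 4, with sums of 169579 to 202111 in control and 142737 to 188029 in transgenic samples. The 7 osteoblast markers, led by Col1a1 and Alpl, had sums of 19881 to 29126 and 15674 to 25837. Their sum followed the same order, but Col1a1 is in both lists and held most of it. In litter 3 the mean of Col1a1 was 24965, beside a mean sum of 27481, so the 2 orders are not separate. Alpl did not follow this order and was highest in litter 2, at 890, with 852 in litter 3. The 14 chondrocyte markers, led by Cnmd and Epyc, ranged from 270538 to 318507 and from 281929 to 303094, highest in litter 2. The 7 hypertrophic markers, led by Col10a1 and Pth1r, ranged from 13371 to 19251 and from 12586 to 16774 and were lowest in litter 4. The part of these cells in the litter differences of the collagens was not tested.

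Sums for the remaining cell types stayed below those of the lists above, except the neutrophil list. They were 2585 to 4977 in control and 2897 to 4321 in transgenic samples for 4 of 11 erythroid markers, led by Alas2 and Rhd. For 8 of 11 markers of macrophages and osteoclasts, led by Ctsk and Acp5, they were 3282 to 4710 and 2762 to 4156. For 7 of 8 endothelial markers, led by Esam and Cdh5, they were 1345 to 2170 and 1226 to 1849. Fabp4, the only adipocyte marker of 6 past the filter, had 3451 to 4454 and 2640 to 4268, and S100b with Sox10, of 7 neuronal and Schwann markers, 4431 to 6512 and 4242 to 7223. Only 7 of the 11 erythroid, 4 of the 6 adipocyte and 5 of the 7 neuronal and Schwann markers had a probe set of a single symbol. The others of these lists could not be read, and the globin genes Hba-a1, Hbb-bt and Hbb-b1 are not in the erythroid sum. None of the tested markers of any list was called between genotypes by limma. The Gapdh ratio of 5-prime to 3-prime probe sets, a sign of RNA integrity, was lowest in litter 4, 1.17 in control and 1.14 in transgenic samples, and lay between 1.26 and 1.36 in the others. That of beta-actin was 0.512 and 0.475 in litter 4 and between 0.590 and 0.647 in the others. Litter 4 is also where the brightest probe sets of Col9a2, Col9a3, Col11a2 and Col27a1 had their lowest means with the deposited scaling. Those of Col2a1, Col9a1 and Col11a1 were lowest in litter 3. After quantile normalization litter 4 was the lowest for all 7 genes at these probe sets. The widest ratio of Col9a2 between genotypes, 1.66, is from litter 4 too. The part of RNA quality in these values was not tested.

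A list of transcription factors and related genes, drawn up for a link with cartilage collagen genes, was compared next. It also holds genes that are not transcription factors, such as Wwp2, and their action on the collagen genes was not tested. Of 29 tested, 0 were called between genotypes, with 12 positive and 17 negative differences and a median of -0.04 log2, against 0.00 over all genes. Sox5 stood at -0.20 log2 (SE 0.08), lower in all 4 litters, as were 5.41% of all probe sets tested. Zfp219, a Sox9 cofactor, stood at -0.40 (SE 0.17) and Runx3 at -0.27 (SE 0.16). The adjusted p by limma was 0.9998 for each of these genes. Between litters 9 of the 29 were called, 31%, where 9.99% of all genes were. Of the 9, 7 had their highest mean in litter 2, as had 390 of the 1097 genes called over the array. Sox9 had signals of 5073, 5652, 3388 and 3035 in control and 5467, 5132, 3665 and 3080 in transgenic samples of litters 1 to 4 (limma, litter adjusted p = 0.000988). The samples of litters 1 and 2 were high and those of litters 3 and 4 low in both genotypes, and the genotypes differed by 0.03 log2 (SE 0.07). Wwp2, a ubiquitin ligase gene that hosts a microRNA of cartilage, had litter means of 14971, 19985, 12028 and 13666 (adjusted p = 0.00337), and Snai1, a repressor of Col2a1, 943, 1258, 838 and 390 (adjusted p = 0.000557).

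Of 28 partners of the fibril and other cartilage matrix genes, 0 were called between genotypes. Between litters 7 were called (25%, against 9.99% of all genes), 2 of these with litter 2 highest. Papss2, an enzyme gene of the sulphate donor used for proteoglycans, stood at 0.21 log2 (SE 0.06, limma, unadjusted p = 0.0042, adjusted p = 0.9998). It was higher in all 4 litters, as were 5.20% of all probe sets tested. Matn1, a matrilin that binds the collagen network, stood at -0.25 (SE 0.10) and Matn2 at 0.24 (SE 0.14). Between litters, Prelp, a collagen-binding proteoglycan, was highest in litter 3 at 6083 and lowest in litter 2 at 3037 (limma, adjusted p = 0.000731). Hspg2, the perlecan gene, and Thbs1, a thrombospondin gene, were lowest in litter 4, at 1612 and 8991 (adjusted p = 0.00189 and 0.0044).

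Genes that hydroxylate, fold, export, trim and crosslink collagen gave 0 calls between genotypes among 33. Between litters they gave 7 (21.2%, against 9.99% of all genes), 2 with litter 2 highest. Furin, a proprotein convertase gene, stood at 0.27 log2 (SE 0.09), higher in all 4 litters, as were 5.20% of all probe sets tested. Lox, the crosslinking oxidase gene, stood at -0.20 (SE 0.11) and P3h3, a prolyl hydroxylase gene, at -0.12 (SE 0.08). The limma adjusted p was 0.9998 for Furin, Lox and P3h3. Between litters, P3h3 was lowest in litter 4 at 2117 (adjusted p = 0.0116), as was Pcolce, a procollagen protease enhancer, at 13937 (adjusted p = 0.0136), and Lox was lowest in litter 2 at 4597 (adjusted p = 0.0196, limma).

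Of 29 other collagen genes, 0 were called between genotypes and 15 between litters (51.7%, against 9.99% of all genes). Of these 15, 2 had their highest mean in litter 2, where 390 of the 1097 genes called over the array did. Col12a1, Col5a1 and Col6a2, collagens of fibrous and pericellular matrix, were highest in litter 3, at 11413, 15286 and 22237 (limma, adjusted p = 0.00189, 0.00438 and 0.00478). Col12a1 was lowest in litter 2 at 6242, while Col5a1 and Col6a2 were lowest in litter 4 at 8670 and 14509. Col8a1 stood at -0.25 log2 (SE 0.10), Col25a1 at -0.16 (SE 0.09) and Col5a2, a partner of type I collagen, at -0.09 (SE 0.07) between genotypes, with a limma adjusted p of 0.9998 each.

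Of 15 receptors and degrading enzymes of collagen, 0 were called between genotypes and 5 between litters (33.3%, against 9.99% of all genes). Itgb1, the shared beta chain of the collagen-binding integrins, stood at -0.17 log2 (SE 0.09), Htra1 at 0.17 (SE 0.10) and Mmp13, the collagenase of late hypertrophic cartilage, at 0.42 (SE 0.25), each with a limma adjusted p of 0.9998. Ddr1, a collagen receptor kinase gene, was highest in litter 2 at 4541 and lowest in litter 4 at 2477 (adjusted p = 0.00375). Mmp14, a membrane-bound collagenase gene, was highest in litter 3 at 3710 (adjusted p = 0.0172), and Timp3, a protease inhibitor gene, in litter 2 at 1039 (adjusted p = 0.0226).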

How the data were processed

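Each probe set has 1 deposited intensity signal per array, linear and not log-transformed, made by the authors with MAS5 per the submitters' processing notes, with no version named. Each array had the same mean, 500, after trimming 2% at either end. The analysis used log2(signal + 22.2), with the 20th percentile of all values as the offset, which understates changes of dim genes. Testing was limited to probe sets whose mean reached 110, the median over the array, without the control probe sets. A gene was represented by its brightest probe set.

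Of the probe sets, 34945 had 1 symbol, 932 several and 9160 none, besides 64 control probe sets; a RefSeq gene table (GRCm38.p6) changed 0 symbols. Genotypes and litters were tested with limma 3.58.1 under R 4.3.3 (lmFit, eBayes with an intensity trend, two-sided, litter and genotype in the model, Benjamini-Hochberg over the 22495 probe sets, threshold 0.05), and chain ratios with an exact permutation test over 16 sign patterns. With 4 litters, limma's p-values in the main fit set a difference against the spread left after litter and genotype. That spread is how far the genotype differences vary from litter to litter, moderated toward its trend with signal over all probe sets. The litter test uses the same spread, with 1 sample of each genotype per litter. Embryos within a sample were put together, so the spread between them was not measured. The limma fit of genotypes and the litter F-test were tested on simulated data. The permutation test and the other steps were not.

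The numbers pair the samples because the series' design ties them to litters. Across probe sets, the 2 arrays of a litter deviated from their genotype means with correlations of 0.0253, 0.435, 0.376 and 0.38 for replicates 1 to 4, so that the pairing was not seen for replicate 1.

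The members and the gene lists were chosen with earlier results of these data known. Named were all member probe sets, Hoxc8, the 5 genes most like Col2a1 and the 5 most like the mean of the 7, the 3 genes of each list with the smallest unadjusted p between genotypes and between litters, and the 2 brightest markers of each cell type. Alternatives were no block, other offsets, filters and scalings, other variance settings, array weights, the mean of a gene's probe sets and leaving out each litter. The comparison with other bright probe sets, and the ratios of all genes to Col2a1 and Col9a2, were added after the values were seen.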

Additional observations from a re-analysis of the deposited data

Results flagged for a closer look

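In 46 sets of 4 values, each from 1 genotype, the distance of an end sample to its neighbour was divided by the whole range of the set. It passed Dixon's 95% limit in 7 of them, where chance alone gives about 1 in 20. The values share samples and genes, so that they are not 7 separate events. The samples of litter 2 account for 5 of them. Transgenic replicate 2 was high for Col2a1 at 45059 (next 40101), for Col11a1 at 46082 (next 39631) and for Col27a1 at 17019 (next 11980). Control replicate 2 was high for Col9a1 at its dimmer probe set, 36658 (next 30629), and low for the ratio of Col11a1 to Col2a1, at -0.359 log2 relative to the mean of the arrays (next -0.038). Transgenic replicate 4 was high for the ratio of Col11a1 to Col11a2, at 0.502 (next -0.087), and low for that of Col11a2 to Col2a1, at -0.442 (next 0.198).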

How the results depend on the processing

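No probe set was called between genotypes in any of the 14 other fits, the smallest adjusted p of any being 0.527 with the stricter filter. With no replicate block, 0 of 22495 probe sets and 0 of the 12 cartilage collagen probe sets were called between genotypes, and Hoxc8 stood at 0.15 log2 in both fits, with 0.05 to 0.20 over the fits without single litters. The paired exact permutation test of the chain ratios cannot go below p = 0.125. Without the block, Col11a1 to Col2a1 (0.196) and Col9a2 to Col2a1 (0.454) had p = 0.0286 by the exact permutation test over all assignments, 0.143 after adjustment over the 10 ratios, so that neither was called. The sign of the Col9a3 difference turned with quantile normalization (0.011), with median centring (0.003), with the mean of all its probe sets (0.164) and between -0.051 and 0.023 over the fits without single litters. Without single litters Col9a1 ranged from -0.117 to -0.002, Col27a1 from -0.077 to -0.018, Col11a1 from -0.014 to 0.052, Col11a2 from -0.083 to 0.037 and the ratio of Col11a1 to Col11a2 from -0.038 to 0.135. Between litters, 995 probe sets were called without a filter, 2 of the 12 among them and Col9a2 not, and 0, with 0 of the 12, without the intensity trend. The stricter filter, with fewer probe sets tested, called 6 of the 12. Without single litters 562 to 3064 probe sets were called, the lowest without litter 2 and the highest without litter 1, and 1 to 4 of the 12. The cause of these shifts was not tested.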
